A study of Mus musculus with 6 samples.

Results

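Mast cell and basophil protease and mediator genes are the 10 genes Cma1, Mcpt4, Tpsb2, Tpsab1, Prss34, Mcpt8, Cpa3, Gzmb, Hdc and Slc18a2. They were taken by gene name from a table of 54532 genes, in which each name occurs on 1 row. RNA was sequenced from bone marrow haematopoietic stem and progenitor cells (HSPCs, the cells that renew the blood lineages) of aged wild-type C57BL/6 mice. The vehicle group and the uridine group had 3 libraries each. They differed in the labels only by treatment, with vehicle alone or with uridine, a nucleoside that cells turn into pyrimidine nucleotides. The protocol describes the RNA as coming from cultured cells, and the labels used here give no age, dose, duration or sorting markers. The comparison asks which of these genes differ between aged HSPCs with and without uridine.

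Mast cells and basophils store preformed mediators in granules and release them when IgE on their surface receptor meets antigen. Their proteases include chymotrypsin-like chymases, trypsin-like tryptases and the metalloprotease carboxypeptidase A3, held on the proteoglycan serglycin. Histamine is made from histidine by the Hdc enzyme and is pumped into granules by the vesicular monoamine transporter of Slc18a2. In mouse marrow the earliest progenitors of both cell types already carry such transcripts, so the genes mark a branch of the progenitor pool as well as mature cells.

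Promoter sequences are shown here for 4 members, 3 that rose with uridine and Cpa3, which was not called. They were looked at because Gata1 and Gata2, whose factors act in both lineages, were also higher with uridine. Whether these factors had a part in any change of the members was not tested. No window of a gene that fell is shown, since the RefSeq start sites of Mcpt8 and Hdc lay away from those in the deposited table. The RefSeq table (build GRCm38.p6, the assembly called mm10) matched 8 of the 10 members and had no entry for Tpsb2 or Tpsab1. Each window is the 250 bases before the RefSeq start site, on the gene's own strand. Capitals mark the GATA factor core, searched as AGATAA and, as a second spelling of that core, TGATAA. They also mark an E-box type read by Mitf, searched as CATGTG. Both strands were searched.
Prss34, chr17:25298144-25298393, plus strand: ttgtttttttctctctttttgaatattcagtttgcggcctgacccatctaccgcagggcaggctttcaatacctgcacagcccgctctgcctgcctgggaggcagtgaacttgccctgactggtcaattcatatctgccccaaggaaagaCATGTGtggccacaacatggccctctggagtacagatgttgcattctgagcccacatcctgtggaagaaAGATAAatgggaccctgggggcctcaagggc
Mcpt4, chr14:56062311-56062560, minus strand: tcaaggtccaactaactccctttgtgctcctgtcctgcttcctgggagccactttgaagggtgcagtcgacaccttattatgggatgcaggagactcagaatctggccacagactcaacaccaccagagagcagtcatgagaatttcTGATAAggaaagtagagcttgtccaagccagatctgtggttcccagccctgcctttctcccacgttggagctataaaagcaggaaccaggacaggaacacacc
Cpa3, chr3:20242182-20242431, minus strand: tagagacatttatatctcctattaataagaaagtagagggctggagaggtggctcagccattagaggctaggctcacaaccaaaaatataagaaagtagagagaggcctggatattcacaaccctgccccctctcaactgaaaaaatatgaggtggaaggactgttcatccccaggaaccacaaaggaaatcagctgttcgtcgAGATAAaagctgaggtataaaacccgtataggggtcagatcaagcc
Cma1, chr14:55944676-55944925, minus strand: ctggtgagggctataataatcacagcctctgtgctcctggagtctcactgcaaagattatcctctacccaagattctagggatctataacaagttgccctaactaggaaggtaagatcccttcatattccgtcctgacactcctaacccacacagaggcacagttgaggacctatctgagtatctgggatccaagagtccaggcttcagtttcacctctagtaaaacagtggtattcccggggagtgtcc
The Prss34 window held AGATAA beginning 31 bases and CATGTG beginning 100 bases before the start site. TGATAA began 103 bases before the start site of Mcpt4, and AGATAA 46 bases before that of Cpa3. The Cma1 window held none of the 3 strings, and neither did the windows of Mcpt8, Hdc and Gzmb, which are not shown. Of the 8 windows matched to members, 4 held AGATAA or TGATAA, the other being that of Slc18a2, where the match lay on the reverse strand. Of all 32851 RefSeq windows, 16.6% held either string, with AGATAA in 9.99% and TGATAA in 7.94% of them. The E-box string was in 1 of the 8 windows and in 12.3% of all windows. A match of letters is a description and shows no binding.

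Library totals ran from 16109265 to 18638627 counts. The 10 genes together took 4423 to 5334 counts per library, between 0.0257% and 0.0286% of the total. All 9 HSPC markers listed passed the count filter. Their summed level was 1352 to 1375 CPM in vehicle and 1373 to 1398 CPM in uridine libraries, with 4 markers higher and 2 lower. The 2 that fell with uridine were Ly6a, from a mean of 15.0 to 3.50 CPM, and Flt3, from 110 to 87.6 CPM. CPM (counts per 1 M counts) were scaled by normalization factors. Monocyte markers summed to 528 to 544 CPM with vehicle and 204 to 213 CPM with uridine, with 6 of 6 lower, and neutrophil granule markers to 2867 to 2940 and 1571 to 1613 CPM, with 8 of 10 lower and 1 higher. The summed level of 8 megakaryocyte and platelet markers was 2876 to 2931 CPM with vehicle and 3126 to 3177 CPM with uridine, and 4 of the 7 tested rose and 2 fell. Erythroid markers summed to 348 to 364 CPM with vehicle and 443 to 448 CPM with uridine, with 4 of 5 tested higher. The part of these shifts in the results below was not tested. In bulk RNA, fewer cells of a type and less RNA per cell cannot be told apart.

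With uridine the mast cell chymase and tryptase genes Cma1, Mcpt4 and Tpsb2 and the basophil and mast cell protease gene Prss34 were higher, by 1.88- to 2.47-fold. The amine transporter gene Slc18a2 was 1.18-fold higher. The basophil protease gene Mcpt8 and the histamine synthesis gene Hdc were lower, at 0.782 and 0.823 of their vehicle levels. Cpa3 and Gzmb did not pass the test, and Tpsab1 had too few counts to be tested. Of the 9 members tested, 5 rose and 2 fell, and 4 of the rises and none of the falls were of at least 1.5-fold. Among all 14706 genes tested 17.3% were called, 7.18% rising and 10.1% falling, while 0.694% rose and 2.45% fell by at least 1.5-fold. The median log2 fold change of the 9 members was 0.23, against 0.0053 over all tested genes. Members were chosen with earlier results of these data known, so their shares and median beside those of all genes are a description only. All called members had groups that did not overlap, 5 higher and 2 lower with uridine. Over all tested genes groups were separated in this way upward in 14.7% and downward in 16.1%. Without uridine replicate 1 the counts of called members were 3 rising and 1 falling, and without vehicle replicate 2 they were 4 and 1.

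**Figure D1:**
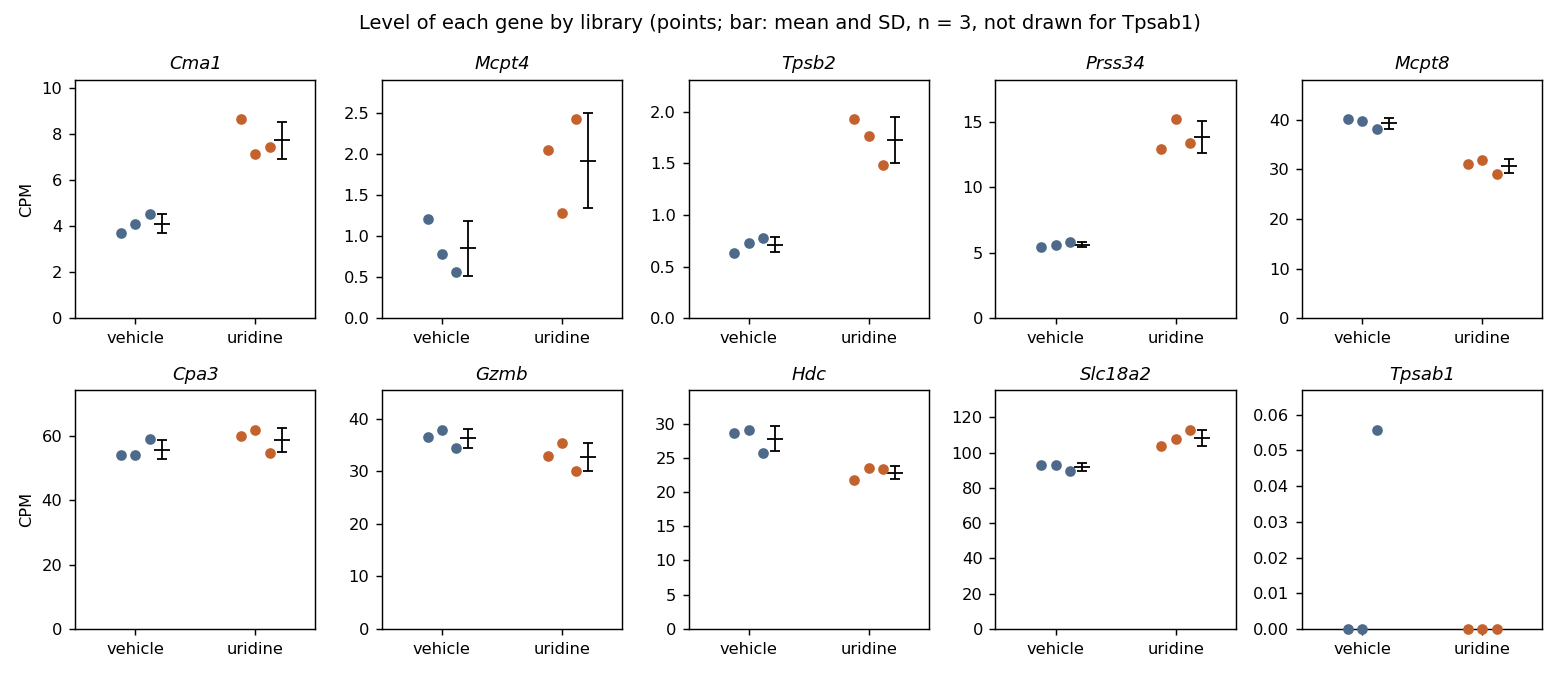
Level of each of the 10 genes in CPM (vertical axis, from 0, scaled per panel) in 3 vehicle and 3 uridine libraries; points are libraries and bars the mean ± SD. The uridine points of Prss34, between 12.9 and 15.2 CPM, lie above all vehicle points, while those of Mcpt8 lie below all vehicle points and those of Cpa3 overlap with them.

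The chymase genes come first. Cma1 (ENSMUSG00000022225; chromosome 14, 55941451 to 55944675, minus strand) encodes mast cell chymase 1, known in the mouse as a protease of connective tissue mast cells. It stood at 3.68, 4.10 and 4.51 CPM in the vehicle libraries and at 8.64, 7.12 and 7.44 CPM in the uridine libraries. Every uridine library was above every vehicle library. The log2 fold change was 0.91 ± 0.17 (SE; adjusted p = 1.86e-05). Mcpt4 (ENSMUSG00000061068; chromosome 14, 56059629 to 56062313, minus strand), the chymase gene whose protein is the main chymotrypsin-like activity of mouse connective tissue mast cells, rested on 10 to 39 counts per library. Its values were 1.21, 0.787 and 0.557 CPM with vehicle and 2.04, 1.29 and 2.42 CPM with uridine. The highest vehicle library and the lowest uridine library nearly met. The change was 1.16 ± 0.37 (adjusted p = 0.0194), and 4 of the 6 fits that left out a library no longer called it. Its adjusted p was 0.0659 when vehicle replicate 2 was dropped and 0.119 for vehicle replicate 3. Dropping uridine replicate 1 gave 0.0748, and dropping uridine replicate 3 gave 0.132. Mcpt4 reached the count filter's level of 0.566 CPM in 5 of 6 libraries, all 3 uridine libraries among them.

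The tryptases form stable tetramers in mast cell granules. Tpsb2 (ENSMUSG00000033825; chromosome 17, 25366550 to 25368094, plus strand) had 11, 13 and 14 counts in the vehicle libraries and 33, 33 and 24 in the uridine libraries. Scaled for depth these were 0.633, 0.730 and 0.779 CPM, then 1.93, 1.77 and 1.49 CPM. The groups were well apart at this low level. The log2 change was 1.27 ± 0.38 (adjusted p = 0.011), with a 95% interval of 1.43- to 4.05-fold, and without uridine replicate 1 the call was lost (adjusted p = 0.0578). Tpsab1 (ENSMUSG00000024173; chromosome 17, 25343245 to 25345562, minus strand), the gene of a second mast cell tryptase, had 1 count in vehicle replicate 3 and 0 in the other 5 libraries. C57BL/6 mice are known to carry a splice-site change that leaves them without this tryptase. A count of 0 allows up to 0.161 to 0.186 CPM at these depths, a limit that covers counting error only. Tpsb2 and Tpsab1 shared no stretch of 50 bases between their GENCODE transcripts.

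Prss34 and Mcpt8 are the proteases most tied to basophils in the mouse. Prss34 (ENSMUSG00000056399; chromosome 17, 25298394 to 25300161, plus strand) encodes a tryptase-family protease of basophils, their progenitors and some mast cells. It had 94, 100 and 104 counts with vehicle and 221, 283 and 216 with uridine. No uridine library had fewer than 12.9 CPM and no vehicle library more than 5.79 CPM. The rise was 2.47-fold, with a 95% interval of 2.05 to 2.96, and its log2 change of 1.30 was the 32nd highest of the 14706 tested. Mcpt8 (ENSMUSG00000022157; chromosome 14, 56082166 to 56085273, minus strand), whose product is used as a marker of mouse basophils, was at 40.1, 39.8 and 38.1 CPM with vehicle. In the uridine libraries it stood at 31.0, 32.0 and 29.0 CPM. The groups were apart in the opposite direction from Prss34. The log2 change was -0.36 ± 0.069 (adjusted p = 5.03e-05).

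The ratio of both basophil genes within a library, which does not depend on scaling between libraries, was looked at after their values were seen. There were 0.135, 0.141 and 0.152 Prss34 counts per Mcpt8 count in the vehicle libraries and 0.415, 0.474 and 0.462 in the uridine libraries. The mean ratio went from 0.143 ± 0.0086 to 0.450 ± 0.031 (SD, n = 3). Against Cpa3, which did not pass the test, the Prss34 ratio was 0.101 ± 0.0030 with vehicle and 0.235 ± 0.018 with uridine. The ratios rest on the counts that showed the changes, so they carry no test of their own.

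Cpa3 and Gzmb did not pass the threshold. Cpa3 (ENSMUSG00000001865; chromosome 3, 20215620 to 20242181, minus strand) encodes mast cell carboxypeptidase A3 and is among the earliest mast cell transcripts in progenitors. Its values were 53.9, 54.0 and 59.1 CPM with vehicle and 60.0, 61.8 and 54.5 CPM with uridine. The groups overlapped, since uridine replicate 3 lay within the vehicle range. The log2 change was 0.080 ± 0.055 (adjusted p = 0.373), and its 95% interval reached from 0.979- to 1.14-fold. Gzmb (ENSMUSG00000015437; chromosome 14, 56258838 to 56262260, minus strand), the granzyme B gene of killer lymphocytes that is also transcribed in mast cell and progenitor populations, stood at 36.6, 37.8 and 34.3 CPM with vehicle. With uridine it stood at 33.0, 35.3 and 30.0 CPM. The uridine values were mostly lower but uridine replicate 2 fell inside the vehicle range. The log2 change was -0.14 ± 0.071 (unadjusted p = 0.047, adjusted p = 0.169), and with the trend on gene length removed it was -0.20 (adjusted p = 0.0463). Of 16 T and NK cell markers 14 were not tested for want of counts in the same libraries, Gzma was at 0 in every library, and Cd3e, the T cell receptor chain gene, averaged 0.0562 CPM with vehicle and 0.0596 CPM with uridine. Nkg7, a granule membrane gene of killer lymphocytes and of other granular cells, fell from 37.6 ± 3.22 to 30.3 ± 1.09 CPM, and Klrd1, an NK cell receptor gene, was at 2.26 ± 0.718 and 1.91 ± 0.241 CPM and was not called. The part of such cells in the Gzmb values was not tested.

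Transcripts of the histamine synthesis gene Hdc and of the amine storage gene Slc18a2 changed in opposite directions. Hdc (ENSMUSG00000027360; chromosome 2, 126593667 to 126619299, minus strand) encodes histidine decarboxylase and is also known as a gene of myeloid-biased stem cells in mouse marrow. It was at 28.6, 29.0 and 25.7 CPM with vehicle and at 21.7, 23.5 and 23.4 CPM with uridine. All uridine libraries were lower than all vehicle libraries. The log2 change was -0.28 ± 0.081 (adjusted p = 0.00814). Dropping vehicle replicate 2 raised the adjusted p to 0.0549, and dropping uridine replicate 1 raised it to 0.0542. Slc18a2 (ENSMUSG00000025094; chromosome 19, 59260878 to 59296012, plus strand) encodes the transporter VMAT2, which loads histamine and serotonin into granules of mast cells, basophils and platelets. Its values were 93.1, 93.2 and 89.4 CPM with vehicle and 104, 108 and 113 CPM with uridine. The uridine libraries were above the vehicle libraries throughout, with a log2 change of 0.23 ± 0.041 (adjusted p = 5.92e-06). Per count of Hdc there were 3.31 ± 0.144 counts of Slc18a2 with vehicle and 4.74 ± 0.120 with uridine. This ratio rests on the counts that showed both changes, so it carries no test of its own. Slc18a2 is shared with platelets, and the megakaryocyte genes Pf4 and Itga2b rose by 0.28 ± 0.019 and 0.16 ± 0.017 on the log2 scale in these libraries while Ppbp and Vwf of the same list changed by -0.15 ± 0.026 and -0.091 ± 0.020. Of the 7 tested genes of that list 4 rose and 2 fell, and their part in the Slc18a2 rise was not tested.

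**Figure D2:**
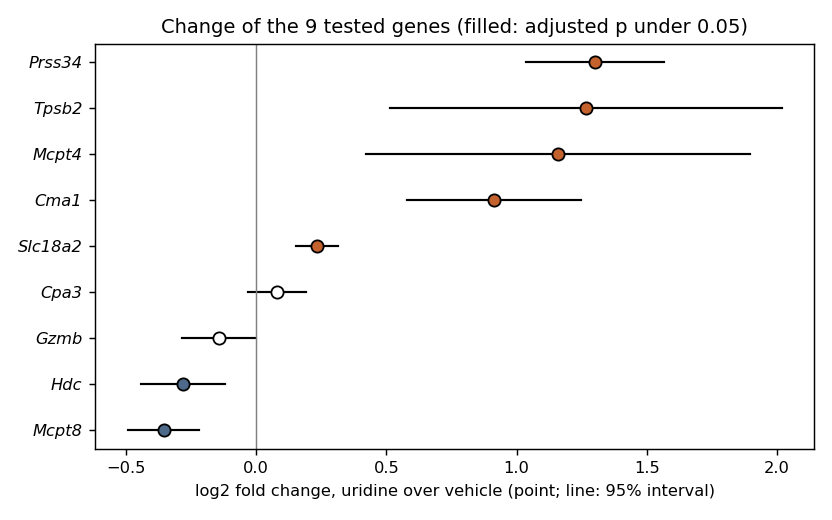
Log2 fold change of uridine over vehicle (horizontal axis) for the 9 tested genes, with 95% intervals as lines; filled points had an adjusted p under 0.05. Prss34, Tpsb2, Mcpt4 and Cma1 lie between 0.91 and 1.30, Slc18a2 at 0.23, and Hdc and Mcpt8 at -0.28 and -0.36.

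Taken per length, the members spanned a wide range of levels. The unit here is CPM per kilobase of the gene length given by the authors, and the median over tested genes was 6.31. In vehicle libraries Mcpt8 (39.4 ± 1.08) and Cpa3 (36.7 ± 1.94) led, with ranges that overlapped. Gzmb (25.2 ± 1.22) and Slc18a2 (24.2 ± 0.563) followed, again without separation between them. Prss34 (4.61 ± 0.155), Hdc (4.35 ± 0.284) and Cma1 (3.76 ± 0.378) formed the next step down, in which each overlapped the next. Mcpt4 (0.768 ± 0.299) and Tpsb2 (0.661 ± 0.0688) were lowest apart from Tpsab1. With uridine the order was Cpa3 (38.7 ± 2.49), Mcpt8 (30.7 ± 1.51), Slc18a2 (28.4 ± 1.15), Gzmb (22.8 ± 1.86), Prss34 (11.4 ± 0.976), Cma1 (7.10 ± 0.732), Hdc (3.58 ± 0.155), Mcpt4 (1.73 ± 0.521) and Tpsb2 (1.60 ± 0.205). In that group only Mcpt8 with Slc18a2, and Mcpt4 with Tpsb2, overlapped as neighbours. The Cpa3 level therefore stood clear of Mcpt8 with uridine and not with vehicle, and Prss34 and Cma1 stood clear of Hdc. The place of Hdc in both orders rests on its given length of 6389 bases. GENCODE lists 5 transcripts of Hdc, 1 of them protein-coding, and which were present was not tested. A shorter length would raise its level per length.

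**Figure D3:**
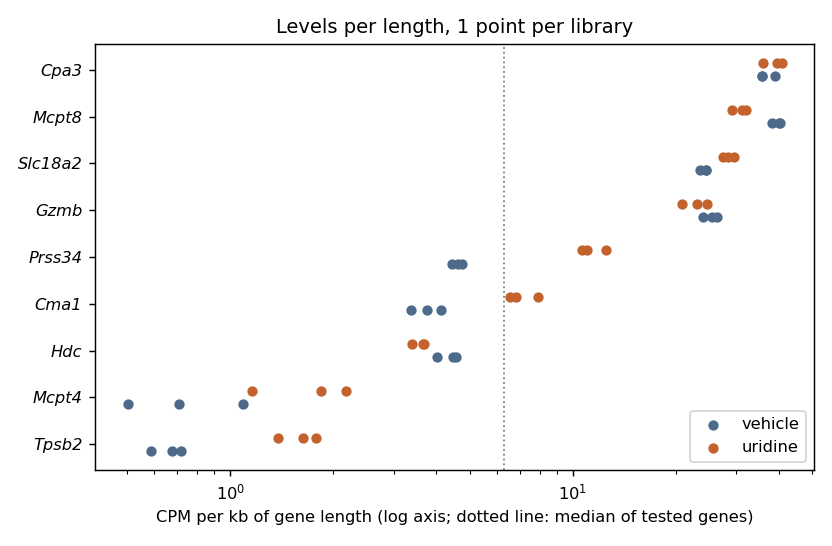
Level per length of 9 genes in CPM per kb of gene length (horizontal log axis), with 1 point per library, blue for vehicle and orange for uridine; the dotted line is the median of tested genes, 6.31. Cpa3, Mcpt8, Slc18a2 and Gzmb lie above the line in all libraries, Prss34 and Cma1 cross it between the groups, and Hdc, Mcpt4 and Tpsb2 stay below it.

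In summed CPM the 10 members held 258 to 265 CPM with vehicle and 274 to 286 CPM with uridine. Slc18a2 alone supplied 35.1% of the sum with vehicle and 38.9% with uridine. Prss34 went from 2.14% to 4.96% of the sum, Cma1 from 1.56% to 2.78% and Mcpt8 from 15.0% to 11.0%. The sum follows its most abundant genes, so it is given as a description only.

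Most of the proteases lie in a pair of gene clusters. On chromosome 14 the span from Cma1 to Gzmb (55941451 to 56262260, 320.8 kb in mm10) holds 15 protein-coding genes, of which 6 had enough counts to be tested. Cma1 and Mcpt4 rose there, while Mcpt8 and Ctsg, the cathepsin G gene of neutrophil and monocyte precursors, fell. Mcpt4 and Mcpt8, which moved in opposite directions, are separated by 19.9 kb, and Mcpt8 and Ctsg by 14.6 kb. Ctsg went from 324 ± 4.50 to 197 ± 1.87 CPM (log2 change -0.72 ± 0.027). Gzmc, a granzyme gene, stood at 3.39 ± 0.394 and 3.42 ± 0.437 CPM. The mucosal mast cell protease genes Mcpt1 and Mcpt2 had 27 and 19 counts in all 6 libraries together and were not tested, and 5 genes of the span had no counts. On chromosome 17 the span from Prss34 to Tpsb2 (25298394 to 25368094) covers 69.7 kb and 5 protein-coding genes. Prss34 and Tpsb2 at its ends rose, and Prss28, Prss29 and Tpsab1 between them had 7, 0 and 1 counts. Counting over related genes could split reads, and 5.48% of the 50-base stretches of Mcpt4 transcripts and 5.38% of those of Cma1 also occurred in transcripts of other genes of the cluster. Slc18a2 overlaps an antisense gene with 8 counts in all, and the strand setting of the counting is not given in the sources used here.

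**Figure D4:**
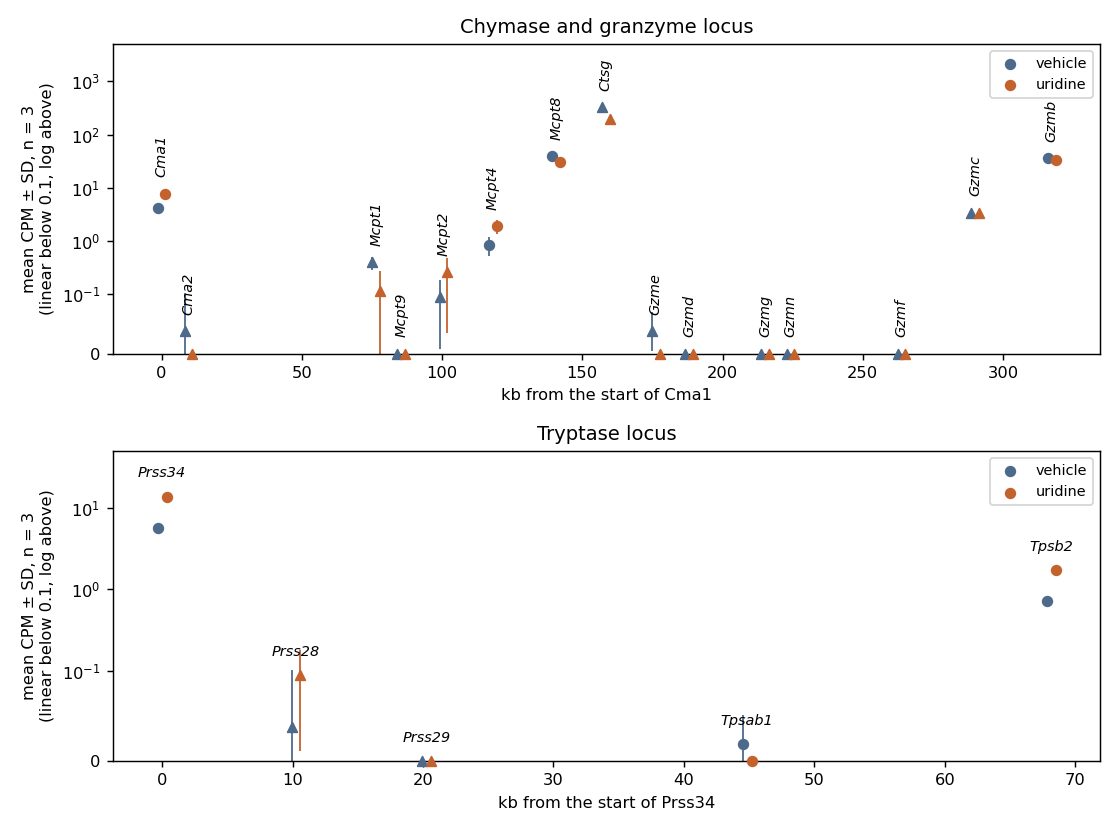
Mean CPM ± SD (vertical axis, linear below 0.1 and logarithmic above, bars stopped at 0, n = 3) of the protein-coding genes of the chymase and granzyme cluster (top) and the tryptase cluster (bottom), placed by distance in kb from the first gene. Circles are members and triangles other genes, blue for vehicle and orange for uridine; Cma1, Mcpt4, Prss34 and Tpsb2 are higher with uridine, and Mcpt8 and Ctsg are lower.

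Other genes of mast cells and basophils were followed in 7 lists with 151 symbols, all of them in the table and 117 with enough counts. Of the 117, 19 rose (16.2%) and 25 fell (21.4%), with a median log2 change of -0.011. Over all genes 7.18% rose and 10.1% fell. The lists too were chosen with earlier results of these data known, so these shares are a description only.

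Transcription factors of these lineages moved in both directions. All 22 were measured, and 6 rose and 9 fell. Those that rose were Egr1, Gata1, Gata2, Tal1, Zfpm1 and Lmo2. GATA2 and GATA1 are the zinc finger factors that drive mast cell and basophil genes, Zfpm1 encodes their partner FOG1, and Tal1 and Lmo2 encode members of the same complex. Gata2, named like Gata1 after its values were seen, went from 266 ± 2.26 to 309 ± 9.88 CPM (0.22 ± 0.026, adjusted p = 2.05e-10), and Gata1 from 33.6 ± 1.02 to 39.5 ± 1.65 CPM (0.24 ± 0.067). Egr1, an immediate-early factor gene, had the smallest p among the 6 (0.44 ± 0.033). The member with the highest level was Lmo2, at 535 ± 15.7 and 568 ± 3.89 CPM (0.085 ± 0.021), and its call was lost with the gene length trend removed (adjusted p = 0.0868). The falls ran from -0.079 for Runx1 to -0.61 for Irf8, the monocyte and dendritic cell factor gene (± 0.047). Cebpb, Nfil3, Ikzf1 and Lmo4 also fell, within this range. Erythroid markers, whose genes also depend on GATA1, were higher in the same libraries, and their part in the rises was not tested. The falls included Cebpa (-0.35 ± 0.037) and Spi1 (-0.37 ± 0.042), factor genes of granulocytes and monocytes that are also listed here for mast cells and basophils. Another fall was Mitf (-0.55 ± 0.19, adjusted p = 0.0341), a regulator of mast cell granule genes. Mitf was low, at 5.66 ± 0.992 and 3.87 ± 0.960 CPM. Cebpa, Spi1 and Mitf were named after their values were seen.

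**Figure D5:**
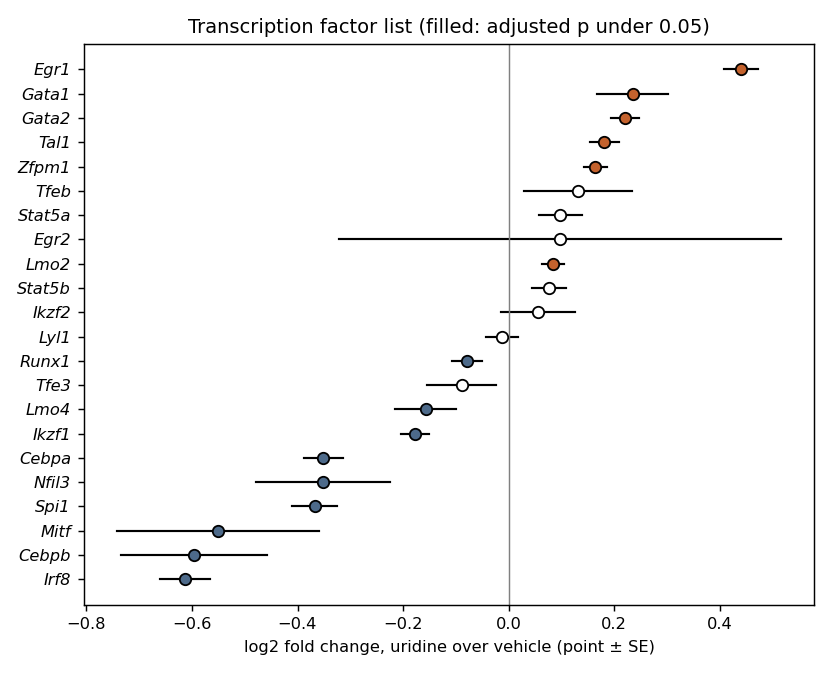
Log2 fold change of uridine over vehicle (horizontal axis, point ± SE) of the 22 transcription factor genes listed; filled points had an adjusted p under 0.05. Gata1 and Gata2 lie at 0.24 and 0.22, and Spi1, Mitf and Irf8 lie at -0.37, -0.55 and -0.61.

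Among receptors and surface markers 2 rose and 4 fell of 20 tested. Kit, the stem cell factor receptor on which mast cells depend, was the most abundant, at 365 ± 1.64 and 383 ± 3.12 CPM (0.070 ± 0.023, adjusted p = 0.0236). The adjusted p of Kit was 0.0798 over unfiltered genes, 0.0763 after dropping vehicle replicate 2, 0.0856 after dropping uridine replicate 2 and 0.0637 after dropping uridine replicate 3. Cd63, a granule membrane protein that reaches the surface when basophils degranulate, rose by 0.27 ± 0.027. The falls included Ms4a3, a granulocyte and monocyte progenitor gene that also occurs in basophils, from 75.0 ± 3.70 to 34.0 ± 1.51 CPM (-1.14 ± 0.057). The other falls were Csf2rb2 (-0.45 ± 0.059), Csf2rb (-0.26 ± 0.031) and Il18rap (-0.20 ± 0.054). The IgE receptor chains gave no call. The alpha chain gene Fcer1a was at 1.97 ± 0.431 and 2.87 ± 0.274 CPM (0.54 ± 0.26, adjusted p = 0.16), and the beta chain gene Ms4a2 at 13.0 ± 0.646 and 15.8 ± 1.82 CPM (0.29 ± 0.11, adjusted p = 0.0514). The gamma chain gene Fcer1g, shared with other Fc receptors, was at 85.4 ± 5.52 and 81.9 ± 1.88 CPM. Enpp3, a basophil and mast cell surface marker, had no count in any library, and the mast cell receptor gene Mrgprb2 averaged 0.0187 and 0.0195 CPM. The IgE receptor chains, Enpp3 and Mrgprb2 were named after their values were seen.

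Of 26 genes of IgE receptor signalling and granule release, 5 rose and 2 fell. Vamp8, a vesicle fusion protein of mast cell granules, went from 125 ± 2.66 to 155 ± 3.95 CPM (0.31 ± 0.034), and the other rises, Lat, Rabgef1, Lat2 and Syk, lay between 0.095 and 0.36. The calcium channel gene Itpr1 was among the falls (-0.16 ± 0.035). Plcg2, the most abundant of the list, was at 448 ± 3.77 and 433 ± 4.08 CPM and was not called.

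Of 16 tested genes of other mediators 4 were called, each of them higher with uridine. The rises were small, from 0.12 to 0.17, and belonged to the leukotriene pathway gene Alox5 (0.17 ± 0.027, from 231 ± 4.78 to 261 ± 2.17 CPM), to Ptgs1 and Pla2g4a of prostaglandin synthesis and to Slc22a3, a transporter that carries histamine. The serotonin transporter gene Slc6a4, the most abundant of this list, was at 265 ± 9.77 and 263 ± 5.14 CPM. Of 19 tested genes of the granule matrix and of protease processing 1 rose and 7 fell. Ctsc, whose product removes the propeptide from chymases and granzymes, went from 103 ± 5.02 to 74.2 ± 1.41 CPM (-0.47 ± 0.044). The granzyme inhibitor gene Serpinb9 rose by 0.35 ± 0.11, but the adjusted p was 0.0598 after dropping vehicle replicate 2 and 0.111 after dropping uridine replicate 1. Serglycin's gene Srgn was at 404 ± 7.27 and 392 ± 6.79 CPM (-0.045 ± 0.023, adjusted p = 0.183). With the gene length trend removed Srgn was at -0.078 (adjusted p = 0.0105).

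Of 11 tested cytokine genes 1 rose and 2 fell. Ccl9, a chemokine gene of myeloid progenitors, was the most abundant and went from 103 ± 2.21 to 60.4 ± 1.10 CPM (-0.77 ± 0.045). Tnf changed by -0.50 ± 0.14. The rise of the growth factor gene Vegfa (0.26 ± 0.095, adjusted p = 0.0426) did not last under every alternative. Its adjusted p was 0.131 by DESeq2 and 0.0586 over unfiltered genes. Dropping vehicle replicate 1, vehicle replicate 3 or uridine replicate 2 gave 0.113, 0.233 and 0.358. Il4, the type 2 cytokine gene of basophils, averaged under 1 CPM in each group, and Il13 had no counts. Of the remaining 20 chymase and tryptase family genes 3 were tested and 9 had no counts in any library, and Ctsg was the single one called. Eosinophil markers, the nearest other granulocyte type, summed to 18.5 to 20.4 CPM with vehicle and 16.5 to 19.4 CPM with uridine.

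The genes most like each called member were found by the distance between their centred log2 CPM profiles, as a root mean square over the 6 libraries, among 11042 protein-coding candidates. Both groups enter these profiles, and no p is attached. Around Tpsb2 the nearest were Prss34 (0.150), Cma1 (0.152) and Pou2af1 (0.176). Among the candidates, the profile of Prss34 was nearest to Cma1 (0.247), Pou2af1 (0.270) and Ltf (0.273). That of Cma1 was nearest to Pou2af1 (0.165), Tm4sf1 (0.166) and Mrgpre (0.166). Tpsb2 lay closer to Prss34 (0.150) and to Cma1 (0.152) than any of these candidates did. For Mcpt4 they were Ltf (0.223), Ces2e (0.279) and Dynlt1c (0.314). Mcpt8 lay nearest to Serpinb1a (0.0244), Rel (0.0294) and Edem2 (0.0323). Hdc lay nearest to Pcyox1 (0.0179), Creb3l2 (0.0359) and Padi4 (0.0369), and Slc18a2 to Atf5 (0.0177), Tmem208 (0.0216) and Ctla2a (0.0217).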

How the data were processed

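The deposited table holds raw counts (whole numbers) of reads for each gene in 6 libraries, with each gene's position, length and biotype. Per the submitters' processing notes the authors used HISAT2 2.0.5 and mm10. How reads were counted (program, annotation, strand, multiple hits) is not given in the sources used here. Columns were assigned to libraries by the sample names in the labels. Members and gene lists were chosen with earlier results of these data known.

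Counts were filtered with filterByExpr at its defaults (14706 genes left), normalized with TMM factors and tested by the robust quasi-likelihood method of edgeR 4.0.16 in R 4.3.3, uridine against vehicle, with Benjamini-Hochberg adjustment over all tested genes. Genes with an adjusted p under 0.05 were called. The script was tested on simulated data. Fold changes are log2 values ± SE, where SE is the size of the coefficient over the root of F. CPM are means ± SD over 3 libraries. A count of 3 equals 0.161 to 0.186 CPM. No library was a copy of another, since chi-square per gene was 2.25 to 2.47 between replicates. The labels do not tell whether replicates came from different mice or cultures. The p-values therefore reflect only variation among these 6 libraries, possibly technical.

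Named were all members, in each list the smallest p in each direction and the most abundant gene, and the 3 genes nearest each called member; 1 gene that this rule names is not reported here. Motifs were searched in RefSeq promoter windows, and shared 50-base stretches in GENCODE vM21 transcripts. Alternatives were DESeq2 size factors, library totals alone, no filter or a stricter one (1 CPM in 3 libraries), DESeq2's Wald test (1.42.0), limma-voom (3.58.1), the replicate number as a block, a gene length correction, a fit to nuclear protein-coding genes alone, and leaving out each library in turn.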

Additional observations from a re-analysis of the deposited data

How the results depend on the processing

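Over 15 alternatives the 9 tested members gave 135 values, of which 127 kept their direction and their side of the threshold and none changed sign. Prss34 ranged from 1.23 to 1.35, Cma1 from 0.83 to 0.99, Slc18a2 from 0.20 to 0.26 and Mcpt8 from -0.43 to -0.32, each called under every alternative run. Mcpt4 (0.93 to 1.49), Tpsb2 (1.18 to 1.36) and Hdc (-0.33 to -0.25) lost calls when a library was left out, as given with their values. With the gene length trend removed 3 members fell, Gzmb being added. Leaving out a library gave 3 to 5 rising and 1 to 2 falling members, 799 to 867 rising and 1234 to 1367 falling genes over the table, and 16 to 19 rising and 19 to 23 falling genes of the lists. DESeq2's Wald test called 696 rising genes in place of 1056; the cause was not tested. Same-numbered libraries of the groups did not deviate together (correlations of -0.015, 0.027 and -0.014). Libraries with unlike numbers gave correlations of -0.024 to 0.038. All these values are small and the labels name no pairs, so the check cannot tell whether the numbers pair the libraries. With the replicate block 5 members rose and 2 fell, and 972 genes rose and 1428 fell. Slc6a4, which was never called, changed sign with library totals alone (0.0033), without vehicle replicate 3 (0.026) and without uridine replicate 1 (0.011), with -0.022 the lowest value when a library was left out. Mcpt4 and Tpsb2 rested on 10 to 39 counts per library, and a change in Tpsab1 was not detectable at this depth.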
